A study of Ovis aries with 32 samples.

Results

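Natriuretic peptide receptors and the proteins that make, bind and break down cyclic GMP (cGMP) were followed by 8 genes of the 21271 genes in the deposited sheep RNA-seq table. These are NPR1, NPR2, NPR3, GUCY1A1, GUCY1B1, PRKG1, PDE5A and CNGA3, which are listed as 18 of 35219 transcripts, and the value of a gene is the sum over its transcripts. The set was chosen by 2 of its genes, CNGA3 and NPR3, whose values changed in the same direction with differentiation in every group. Their differentiation values are therefore a description without a test. The values of the other 6 genes did not enter that choice, but all 8 were listed with earlier results of these data known. Libraries came from perirenal preadipocytes of near-term fetuses of crossbred Columbia-Rambouillet ewes with singleton pregnancies, and from mature adipocytes differentiated from such cells in culture. The deposited extraction protocol speaks of adipose tissue, whereas the sample labels name cells and the study's methods cell pellets, and the labels were followed here. Male and female control preadipocytes are MC and FC, and those of growth-restricted fetuses are MFGR and FFGR. The corresponding differentiated adipocytes are MCD, FCD, MFGRD and FFGRD, and each of the 8 groups holds 4 libraries. Fetal growth restriction (FGR) was produced by keeping pregnant ewes in a hot environment during mid gestation, whereas control ewes were kept at a cooler temperature and were pair-fed. It models placental insufficiency from heat, and the labels do not say how many fetuses or cultures stand behind the 4 libraries of a group. P-values therefore measure the spread between these libraries, which may in part be technical.

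Natriuretic peptides from the heart and other tissues bind receptors with guanylyl cyclase activity, which raise cGMP inside the cell, whereas nitric oxide raises cGMP through the soluble guanylyl cyclase. In fat cells of several mammals cGMP acts through the cGMP-dependent protein kinase and is known for promoting lipolysis and thermogenic gene expression. Phosphodiesterases end the signal, and the clearance receptor removes the peptides from outside the cell.

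The libraries summed to between 9.52 and 21.2 M normalized reads, which stands for an estimated 7.91 to 21.6 M reads assigned to transcripts. The value of 1 read was estimated from the most frequent low value of each library, at 0.688 to 1.83 normalized reads. Statements about 3 reads rest on this estimate. Normalized reads are not divided by transcript length, so levels are compared between libraries and not between genes. In 7 of the 32 libraries values fell with the genomic span of the transcript more steeply than in the other 25. Of these 7, FFGR had replicates 2 and 3, FC had replicate 2, MFGR had replicate 1, and of the adipocytes MFGRD had replicate 1, FFGRD replicate 3 and MCD replicate 4. Their slope of log2 values per 10-fold of span was −1.50 to −1.0, against −0.91 to −0.04 in the others. Among the others MCD replicate 2 (−0.91) and FCD replicate 2 (−0.85) were nearly as steep. Both stay in the fits without the 7, so these fits do not remove all libraries with a steep slope. Results of the 8 genes that change without these 7 are given both ways. Marker genes and the other genes of the pathway were not refitted without them. The summed level of 8 adipocyte markers was 87.1 to 2042 in the preadipocyte libraries and 415 to 185400 in the adipocyte libraries, so the stages overlapped in it. The summed level of 8 smooth muscle and pericyte markers moved the other way, from 6335 to 60050 in preadipocytes and from 783 to 16580 in adipocytes, with RGS5 under 10 in all libraries and MCAM, a member of that list, higher in adipocytes (31.9 to 1165, against at most 29.4). Over all groups 8 of 8 adipocyte markers rose, and of 7 smooth muscle and pericyte markers tested 5 fell and 1 (MCAM) rose. Of 5 endothelial markers tested ERG (−3.01 on the log2 scale) and KDR (−1.43) fell and 0 rose. ERG held 14.1 to 137.4 normalized reads in preadipocytes, PECAM1 reached 272 and TEK 77.6 in an adipocyte library, and CDH5 and TIE1 were under 10 in all libraries. Of 3 macrophage markers tested CD163 (2.85) and CD14 (1.86) rose. Of 7 preadipocyte and fibroblast markers tested THY1 (1.65) rose and DCN (−1.28) and PDGFRB (−0.82) fell, with DLK1 under 10 in all libraries, and 0 of 2 mesothelial markers tested were called. In such bulk cultures fewer cells of a type and less RNA per cell cannot be told apart, and the part of these markers in the results below was not tested.

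NPR1 encodes the receptor for the atrial and brain natriuretic peptides. In fits that do not pair the libraries, its value rose with differentiation in the male control cells and over all groups. Its median in the 16 preadipocyte libraries was 352.5 against 1033 in the 16 adipocyte libraries. The gene lies at chr1:110281009-110293764 of Oar_rambouillet_v1.0 and has 1 listed transcript.

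The MC libraries held 104, 89.7, 158 and 356 normalized reads of NPR1 and the MCD libraries 1050, 600, 1016 and 1241. The FC libraries held 70.3, 375, 366 and 349, against 510, 638, 1778 and 1931 in FCD. In both control groups every adipocyte library was above every preadipocyte library. The share of all genes without overlap between the stages was not counted, here or for the genes below. Nothing particular to a gene is therefore read from a lack of overlap. The MFGR libraries held 382, 1088, 65.9 and 484, against 872, 1766, 481 and 2217 in MFGRD. The FFGR libraries held 49.1, 192, 615 and 495, against 2578, 1546, 459 and 893 in FFGRD. In both growth-restricted groups the stages overlapped, and 1 adipocyte library of each lay below the 2 highest preadipocyte libraries.

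The log2 fold change of NPR1 in MC was 2.63 ± 0.44 (SE, 4 against 4 libraries, limma adjusted p = 0.00802). In this comparison 7.53% of all genes tested were called, that is, they had an adjusted p below 0.05 and a fold change above 1.5. Of the 6 genes not used for the choice, 2 were called in MC, NPR1 and GUCY1B1. The change of NPR1 was 2.09 ± 0.66 in FC (adjusted p = 0.221), where 0.43% of genes and 0 of the 6 were called. It was 2.28 ± 0.85 in FFGR (adjusted p = 0.234), where 2.67% of genes and 0 of the 6 were called. In MFGR, where 3.38% of genes and 0 of the 6 were called, it was 1.73 ± 0.83 (adjusted p = 0.365). With the replicate number as a block, which pairs the MFGR and MFGRD libraries, NPR1 passed with an adjusted p of 0.0253. The share of all genes called with that block is not given here. Over all 32 libraries, with sex and growth group as a covariate, the change of NPR1 was 2.18 ± 0.38 (adjusted p = 3.6e-05). There 27.9% of all genes tested were called, 12.7% higher and 15.2% lower, and 2 of the 6 genes were called, NPR1 and GUCY1B1, both higher. Without the 7 libraries that stand apart the change of NPR1 was 2.45 ± 0.45 (adjusted p = 0.000142).

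NPR2 encodes the receptor for C-type natriuretic peptide. Its 16 preadipocyte libraries lay between 72.3 and 376 (median 294.7) and its 16 adipocyte libraries between 98.4 and 430 (median 302.4), so the stages covered nearly the same range. The change over all groups was 0.03 ± 0.26 on the log2 scale (95% interval −0.50 to 0.55, adjusted p = 0.954), and its sign depended on the setting. The gene lies at chr2:55457781-55475178. Of its 2 transcripts, NPR2-201 held 96.4% of the values and NPR2-202 was above 0 in 9 libraries.

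NPR3 encodes the clearance receptor, which lacks the guanylyl cyclase domain. It was near the limit of detection in the preadipocytes and at 164 normalized reads or more in all adipocyte libraries. Its values in MC were 14.7, 17.3, 20.5 and 1.44, and those in MCD were 949, 357, 1939 and 850. The FC libraries held 12.4, 3.804, 22.9 and 15.4, and the FCD libraries 194, 409, 852 and 252. FCD was the adipocyte group with the lowest median of NPR3. The MFGR libraries held 3.49, 17.4, 3.72 and 5.30, and the MFGRD libraries 359, 1203, 621 and 539. The FFGR libraries held 11.03, 4.17, 0.937 and 4.54, and the FFGRD libraries 1895, 2470, 164 and 656. Every adipocyte library, the lowest of which was 1 of the 7 that stand apart, was above every preadipocyte library of any group. In 4 of the 16 preadipocyte libraries (MC replicate 4, FC replicate 2, FFGR replicates 2 and 3) the value was at or under that of 3 reads. The fitted log2 fold changes of NPR3 were 6.29 in MC, 4.85 in FC, 6.45 in MFGR, 7.38 in FFGR and 6.24 over all groups. These describe values that chose the gene, and their size depends on preadipocyte levels of a few reads. The gene lies at chr16:43294179-43390138. Its transcript NPR3-202 held 99.8% of the values, and NPR3-201 was above 0 in 4 libraries.

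The receptor genes NPR1 and NPR3 stood in a different proportion in the stages. The log2 ratio of NPR1 to NPR3 lay between 2.06 and 8.31 (median 4.82) in the 16 preadipocyte libraries and between −0.93 and 2.93 (median 0.60) in the 16 adipocyte libraries. Within each of the 4 groups of fetuses the stages did not overlap in this ratio, except in FC and FCD. There the lowest FC library was at 2.41 and the highest FCD library at 2.93. The ratio rests on NPR3, which was used for the choice, and so it has no test here, and since it is not per length its zero point has no meaning.

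**Figure D1:**
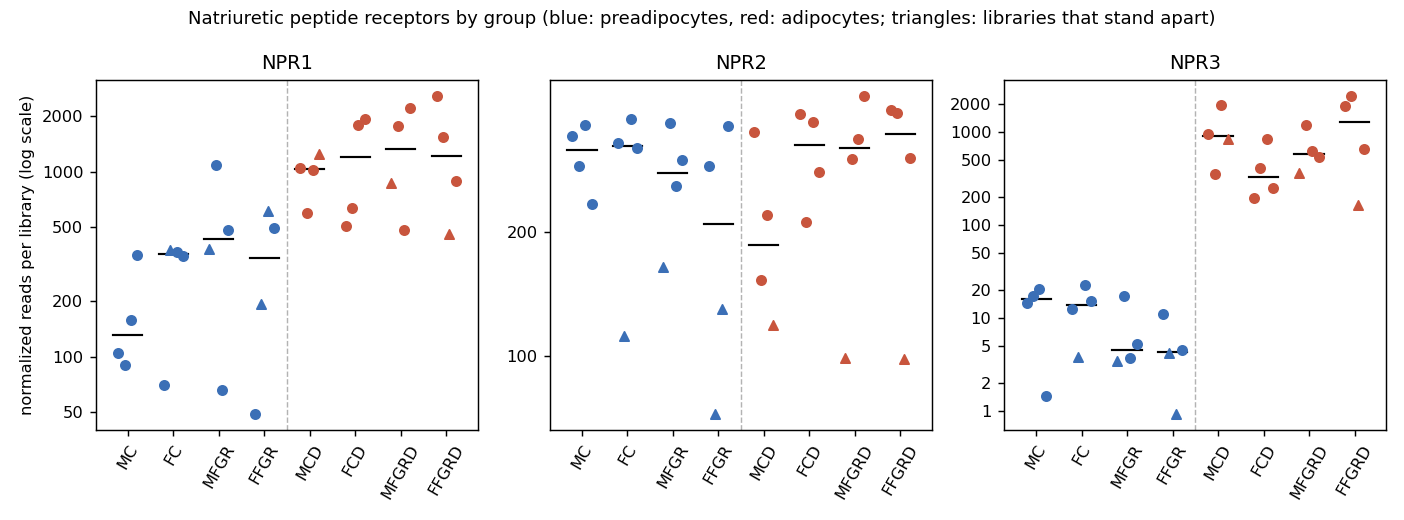
Normalized reads of NPR1, NPR2 and NPR3 in each of the 32 libraries (log axis), by group, with blue points for preadipocytes, red points for adipocytes, triangles for the 7 libraries that stand apart and black lines for group medians. The stages are separate in NPR3, overlap in NPR1 across groups and cover nearly the same range in NPR2, where the triangles are low.

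The soluble guanylyl cyclase, the receptor for nitric oxide, is a dimer of an alpha and a beta subunit. GUCY1A1 (chr17:51549466-51612106) and GUCY1B1 (chr17:51465773-51517775) encode these subunits and are neighbours, 31.7 kb apart. Over all groups the beta subunit gene rose and the alpha subunit gene had a lower value without passing the test, and both statements depended on which libraries were in the fit.

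GUCY1B1 had 55.1, 97.2, 38.8 and 64.4 normalized reads in MC and 140, 436, 690 and 517 in MCD, and these groups did not overlap. In FC it had 92.1, 71.4, 50.7 and 51.0, against 43.2, 113, 153 and 177 in FCD. In MFGR it had 68.3, 68.3, 130 and 34.8, against 463, 50.3, 92.9 and 47.4 in MFGRD. Outside the male controls the stages overlapped, and in MFGRD 1 library, which stands apart, was several times above the others. In FFGR it had 465, 65.6, 44.3 and 208, against 540, 57.7, 128 and 146 in FFGRD. The replicates with the number 1 were the highest in both of these groups.

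The log2 fold change of GUCY1B1 was 2.65 ± 0.50 in MC (limma adjusted p = 0.0134). Without MCD replicate 3 it was 2.37 and no longer called (adjusted p = 0.0519). It was 0.73 ± 0.48 in FC, 0.57 ± 0.74 in MFGR and 0.26 ± 0.89 in FFGR, with adjusted p-values of 0.590, 0.817 and 0.921. Over all groups it was 1.05 ± 0.39 (adjusted p = 0.0339), and it was 0.70 ± 0.42 without the 7 libraries that stand apart (adjusted p = 0.186). The call over all groups was also lost in 10 of the 32 fits that left out 1 library, with values of 0.91 to 1.22 over the 32. These 10 libraries were MC replicates 1, 3 and 4, MCD replicates 2, 3 and 4, MFGR replicate 4, MFGRD replicate 1, FFGR replicate 3 and FFGRD replicate 1. Of its 4 transcripts, GUCY1B1-202 held 96.2% of the values. In the fit of single transcripts, in which 2.83% were called in MC and 20.4% over all groups, GUCY1B1-202 was called in MC (2.63 ± 0.53, adjusted p = 0.0392) and not over all groups (1.00 ± 0.40, adjusted p = 0.0646).

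GUCY1A1 was low, with 1.88 to 182 normalized reads (median 27.2) in preadipocytes and 1.51 to 64.0 (median 14.9) in adipocytes, and 5 libraries were at or under 3 reads. Its change over all groups was −1.10 ± 0.59 (adjusted p = 0.161). In the preadipocyte libraries that stand apart it held 1.88 to 7.67, against 7.16 to 182 in the other 12. Without the 7 libraries it was lower in adipocytes by −2.08 ± 0.49 on the log2 scale and passed the test (adjusted p = 0.00159). The share of all genes called without these libraries is not given here. Within groups the change of GUCY1A1 was −0.29 in MC, −0.99 in FC, −2.28 in MFGR and −0.83 in FFGR, with adjusted p-values from 0.351 to 0.851.

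PRKG1 encodes the type I cGMP-dependent protein kinase, the main effector of cGMP in smooth muscle and fat. It held 51.0 to 571 normalized reads in preadipocytes (median 410.2) and 49.3 to 1104 in adipocytes (median 314.6), and the wide ranges overlapped. The change over all groups was −0.08 ± 0.42 (95% interval −0.95 to 0.78, adjusted p = 0.910). The gene spans 1388.4 kb at chr22:8245244-9633638, and its transcripts PRKG1-201 and PRKG1-202 held 79.5% and 20.5% of the values.

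PDE5A encodes the cGMP-specific phosphodiesterase that sildenafil inhibits. Its values were 722 to 8541 in preadipocytes (median 4890) and 839 to 14740 in adipocytes (median 5818). The change over all groups was 0.35 ± 0.44 (95% interval −0.55 to 1.24, adjusted p = 0.599). The gene lies at chr6:7323441-7469339, a span of 145.9 kb. Of its 5 transcripts PDE5A-201 held 88.9% of the values. The minor transcripts PDE5A-202 and PDE5A-205 had larger values in adipocytes, by 2.06 ± 0.88 and 2.69 ± 1.07 on the log2 scale, and did not pass the test (adjusted p = 0.0899 and 0.0681).

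PDE5A, PRKG1 and NPR2 were low in the preadipocyte libraries that stand apart, and PDE5A and NPR2 also in such adipocyte libraries. In the 4 such preadipocyte libraries PDE5A held 722 to 1692, against 4079 to 8541 in the other 12, and in the 3 such adipocyte libraries 839 to 1865, against 1954 to 14740 in the other 13. PRKG1 held 51.0 to 149 in those 4 preadipocyte libraries against 229 to 571 in the other 12. NPR2 held 72.3 to 165 against 235 to 376. In preadipocytes the 3 genes did not overlap between these libraries and the rest, and 22.2% of all 12737 genes tested were likewise lower in those 4 libraries without overlap. The libraries were set apart on the values of all transcripts past the filter, so nothing particular to the 3 genes is read from this. In adipocytes NPR2 held 98.4 to 119 in the 3 libraries against 153 to 430 in the other 13, without overlap as for PDE5A, where the share of all genes was 12.9%. PRKG1 overlapped there, with 49.3 to 171 in the 3 libraries against 56.0 to 1104 in the others. The lowest PRKG1 and PDE5A values of the others (56.0 and 1954) were those of FCD replicate 2, whose slope was also steep. Over the 32 libraries the log2 values of these 3 genes had Pearson's r of 0.88 (NPR2 and PDE5A), 0.79 (NPR2 and PRKG1) and 0.77 (PRKG1 and PDE5A), a description of libraries that share the slope.

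**Figure D2:**
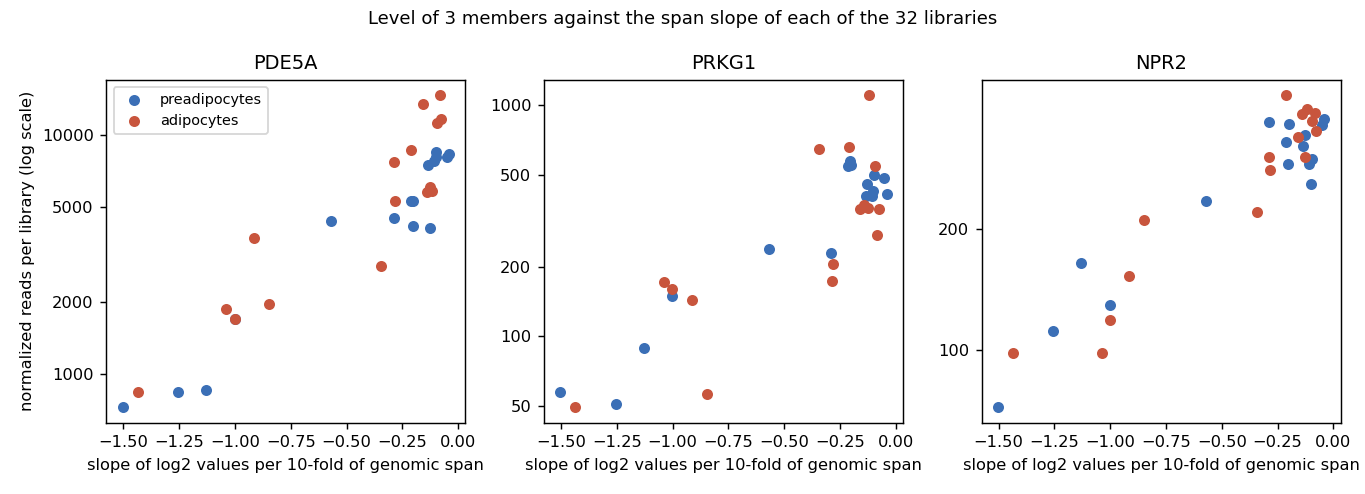
Normalized reads of PDE5A, PRKG1 and NPR2 (log axis) against the slope of each library's log2 values per 10-fold of genomic span, for 16 preadipocyte (blue) and 16 adipocyte (red) libraries. Libraries with a slope of −1.0 or below hold the lowest PDE5A and NPR2 values of each stage.

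CNGA3 encodes a subunit of the cyclic nucleotide-gated cation channel best known from cone photoreceptors, where cGMP opens it. It was present at 182.9 normalized reads or more in all preadipocyte libraries and at no more than 49.3 in any adipocyte library. Its values in MC were 329, 281, 541 and 565, and in MCD they were 49.3, 13.2, 5.07 and 1.16. In FC they were 288, 237, 183 and 232, and in FCD 31.8, 36.7, 11.8 and 14.1. FC was the preadipocyte group with the lowest values. In MFGR they were 622, 611, 250 and 277, and in MFGRD 19.8, 20.96, 7.74 and 26.7. In FFGR they were 411, 293, 754 and 495, and in FFGRD 3.96, 3.89, 2.35 and 32.2. No adipocyte library of any group reached the lowest preadipocyte library, and in MCD replicate 4 and FFGRD replicate 3, both among the 7, the value was at or under that of 3 reads. The fitted log2 fold changes of CNGA3 were −5.38 in MC, −3.40 in FC, −4.47 in MFGR, −6.00 in FFGR and −4.81 over all groups, again as a description of the values that chose it. The gene lies at chr3:109052810-109077445 and has 1 listed transcript.

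**Figure D3:**
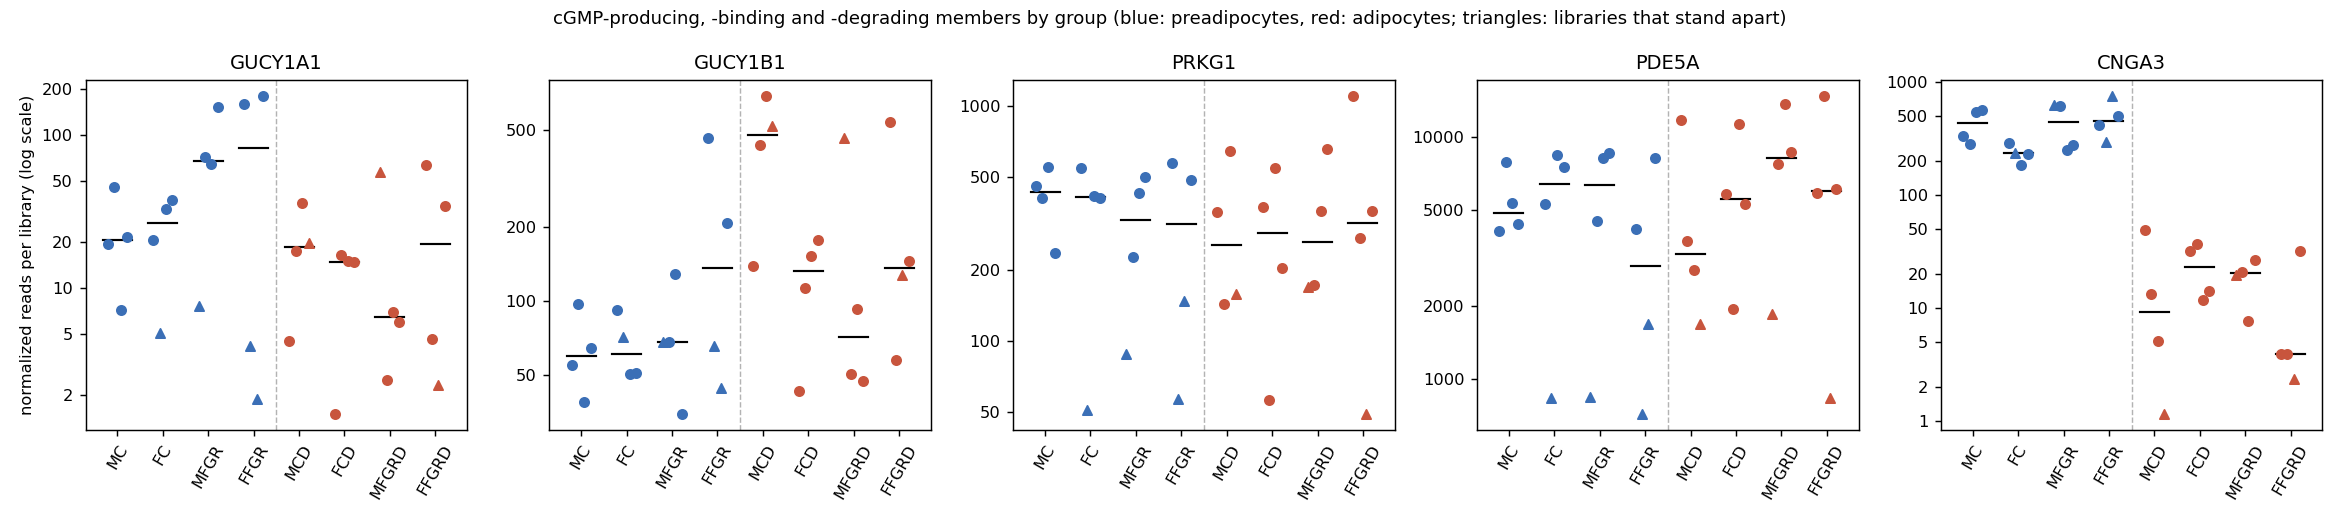
Normalized reads of GUCY1A1, GUCY1B1, PRKG1, PDE5A and CNGA3 in each of the 32 libraries (log axis), by group, with blue points for preadipocytes, red points for adipocytes, triangles for the 7 libraries that stand apart and black lines for group medians. CNGA3 has no overlap between the stages, GUCY1B1 is separate only in MC and MCD, and the other 3 genes overlap in every group.

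**Figure D4:**
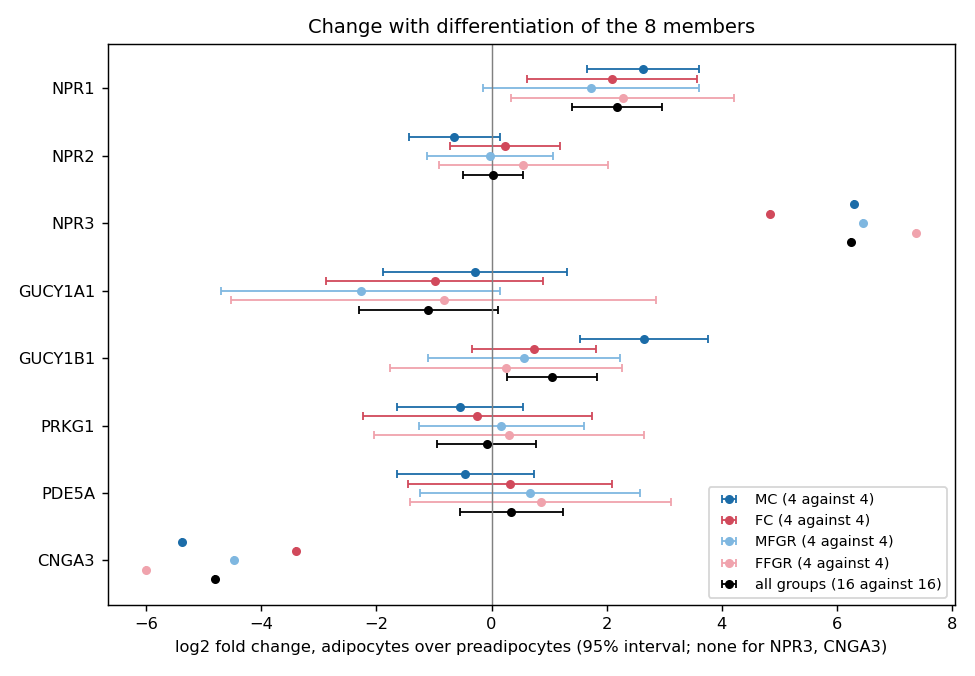
Log2 fold change of adipocytes over preadipocytes for the 8 genes in each group of fetuses (4 against 4 libraries) and over all groups (16 against 16), with 95% intervals except for NPR3 and CNGA3, whose values chose the set. The points of NPR3 (4.85 to 7.38) lie far to the right, those of CNGA3 (−6.00 to −3.40) far to the left, and those of NPR1 (1.73 to 2.63) to the right of 0.

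The other genes of the pathway were taken from a list of 44, of which 39 were in the table and 22 passed the filter over all groups. Over all groups 8 of the 22 rose, 4 fell and 10 did not pass the test, beside 27.9% called of all genes, and the median log2 fold change of the 22 was −0.005 against 0.04 over all genes. Of those that fell, PDE6B and PDE1C passed the filter only through preadipocyte libraries. Of the ligands, NPPA (atrial natriuretic peptide) was listed at 0 in all 32 libraries, and NPPC (C-type natriuretic peptide) did not exceed 12.7. OSTN, which encodes a peptide that binds the clearance receptor, did not exceed 1.79.

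Of the pathway genes tested, the phosphodiesterase gene PDE3B had the largest rise. PDE3B, the insulin-regulated phosphodiesterase of adipocytes that cGMP inhibits, had 11.1 to 321 normalized reads (median 99.4) in preadipocytes and 193 to 7991 (median 1307) in adipocytes. Its change over all groups was 3.91 ± 0.40 (limma adjusted p = 8e-09), and it was called in MC, MFGR and FFGR. PDE1B, a calmodulin-dependent phosphodiesterase, rose by 3.00 ± 0.35 on the log2 scale, from a median of 8.72 to 62.5. PDE9A, which is specific for cGMP, rose by 2.09 ± 0.43. The photoreceptor phosphodiesterase subunits went in opposite directions, PDE6A by 1.77 ± 0.28 and PDE6B by −3.01 ± 0.38, from a PDE6B median of 11.1 to 0. PDE1C fell by 2.01 on the log2 scale, from a median of 9.73 to 1.31. In adipocytes PDE6B reached at most 9.68 and PDE1C at most 7.58 normalized reads. Both therefore passed the filter only through preadipocyte libraries, and their fall is a description at a few reads without a test. PDE3A and PDE1A, at 0.14 ± 0.45 and −0.63 ± 0.28, did not pass the test (adjusted p = 0.856 and 0.0823). Nor did PDE6D and PDE10A, at −0.30 and −0.38 (limma adjusted p = 0.134 and 0.412).

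RGS2, a regulator of G protein signalling that the cGMP-dependent kinase phosphorylates, did not overlap between the stages. It had 66.2 to 378 normalized reads in preadipocytes and 434 to 2351 in adipocytes. Its change was 2.66 ± 0.23 (adjusted p = 3.8e-10), and it was also called in MC, FC and MFGR. FURIN, a protease that processes natriuretic peptide precursors, rose by 1.65 ± 0.19 on the log2 scale. ABCC5, an exporter of cyclic nucleotides, rose by 0.97 ± 0.35. GUCY2C, the intestinal guanylyl cyclase receptor, rose by 1.61 ± 0.33 on the log2 scale from a median of 7.56, that is, of a few reads. IRAG1, a substrate of the kinase at the endoplasmic reticulum, and KCNMA1, the large-conductance calcium-activated potassium channel, fell by 1.79 and 2.42 on the log2 scale. Both are also known from smooth muscle. Of 7 smooth muscle and pericyte markers tested 5 fell and 1 (MCAM) rose, and the part of such cells in these changes was not tested.

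**Figure D5:**
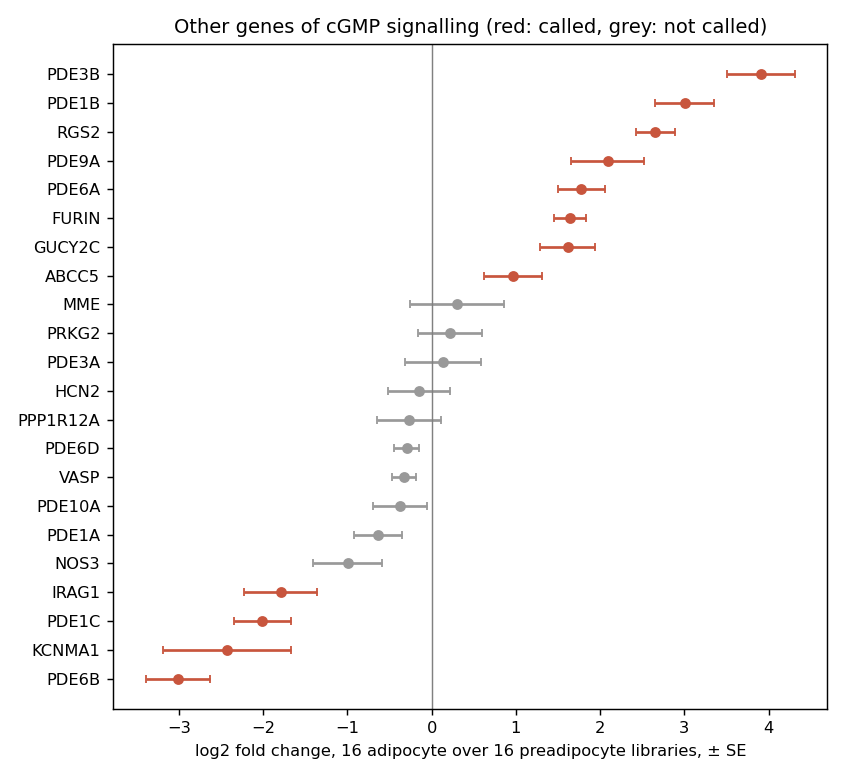
Log2 fold change of 16 adipocyte over 16 preadipocyte libraries, with SE, for the 22 tested genes of the pathway list that are not among the 8 genes. Red points passed the test, 8 higher (PDE3B at 3.91 is the highest) and 4 lower (PDE6B at −3.01 is the lowest), and the 10 grey points did not. PDE6B and PDE1C passed the filter only through preadipocyte libraries.

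Growth-restricted cells were compared with control cells within each sex and stage and over both sexes of a stage. In these 6 comparisons 0 of all genes tested (0%) and 0 of the 8 genes were called by limma. An unadjusted limma p below 0.05 was found for 87 of 11681 genes (FFGR against FC) to 342 of 12138 (preadipocytes of both sexes). Of the 8 genes it was found for 0 or 1. These shares are below the 0.05 that this threshold gives without any difference. The tests were thus conservative, and 0 calls do not show that there is no difference. CNGA3 was higher in FFGR (293 to 754) than in FC (183 to 288), by 0.99 ± 0.35 on the log2 scale (limma unadjusted p = 0.0205, adjusted p = 0.985). These ranges did not overlap, and the share of all genes without overlap between FFGR and FC was not counted. The difference of CNGA3 between MFGR and MC was −0.03 ± 0.40. GUCY1B1 was lower in MFGRD than in MCD by −1.92 ± 0.75 (limma unadjusted p = 0.0294, adjusted p = 1.00), and these groups overlapped. For NPR1 and NPR3 the differences over both sexes were 0.55 ± 0.64 and −0.98 ± 0.55 in preadipocytes, and 0.20 ± 0.41 and 0.37 ± 0.56 in adipocytes.

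Males were compared with females in 4 comparisons, with 0 genes called (0%) of all genes or of the 8 by limma. An unadjusted limma p below 0.05 was found for 37 of 11487 genes (MFGRD against FFGRD) to 445 of 11544 (MCD against FCD). These shares too are below 0.05, so 0 calls do not show that there is no difference. CNGA3 was higher in MC than in FC by 0.82 ± 0.30 (limma unadjusted p = 0.0230, adjusted p = 1.00), and GUCY1B1 higher in MCD than in FCD by 1.83 ± 0.58 (limma unadjusted p = 0.0102, adjusted p = 0.873). Both pairs of groups overlapped. The other 2 comparisons had none of the 8 genes at an unadjusted p below 0.05. NPR3 did not pass the filter between MFGR and FFGR, nor GUCY1A1 between MFGRD and FFGRD.

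Whether the change with differentiation differed between growth-restricted and control cells, or between males and females, was tested as an interaction over the 32 libraries. Of all 12737 genes tested 0 were called (0%) in either test by limma, with 132 and 116 at an unadjusted p below 0.05. Both shares are below 0.05, so 0 calls do not show that the changes were equal. The difference in the change of GUCY1B1 was −1.28 ± 0.73 by growth restriction and 1.11 ± 0.73 by sex (males less females), and that of NPR1 was −0.35 ± 0.79 and 0.00 ± 0.79. The adjusted limma p-values of the 6 genes lay at 0.912 or above, with SEs of 0.52 to 1.22. For NPR3 and CNGA3 the differences were 1.35 ± 0.79 and −0.85 ± 0.69 by growth restriction, and 0.26 ± 0.79 and −0.23 ± 0.69 by sex. A like change in every group chose these genes, so their differences are a description without a test. Blocking on the replicate number gave SEs of 0.40 to 0.99, and 0 of the 6 genes were called.

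Among the 16 adipocyte libraries ADIPOQ, which encodes the adipocyte hormone adiponectin, ranged from 8.59 (FCD replicate 4) to 13420 (MCD replicate 3), and the 8 genes were correlated with it within this stage. The preadipocyte libraries held up to 215.7 of ADIPOQ (median 11.7). FCD replicate 4, MFGRD replicate 4 (146) and FFGRD replicate 4 (175) thus lay within the preadipocyte range. None of the 8 correlations passed after adjustment over the 8. The highest was that of GUCY1B1, with Pearson's r = 0.56 (n = 16, permutation p = 0.0219, adjusted p = 0.134) and Spearman's rho = 0.65 (permutation p = 0.00817, adjusted p = 0.0654). CNGA3 had r = −0.51 (permutation p = 0.0419, adjusted p = 0.134) and rho = −0.58 (permutation p = 0.0213, adjusted p = 0.0853). With the mean of each group removed, r was 0.42 for GUCY1B1 and −0.41 for CNGA3. Without the 2 libraries farthest from the median of ADIPOQ, FCD replicate 4 and MCD replicate 3, r was 0.75 for GUCY1B1 (permutation test, adjusted p = 0.0240), −0.63 for CNGA3 (adjusted p = 0.0460) and −0.63 for NPR2 (adjusted p = 0.0460), so these calls depend on those libraries. Leaving out FCD replicate 4 alone already gave r = 0.78 for GUCY1B1 (permutation test, adjusted p = 0.0072), −0.65 for CNGA3 (adjusted p = 0.0396) and −0.61 for NPR2 (adjusted p = 0.0445). NPR2 had r = −0.49 (rho = −0.36) over all 16 and −0.19 without the 3 that stand apart. Without these 3, GUCY1B1 and CNGA3 kept the sign of r and did not pass after adjustment. The 3 libraries were high in ADIPOQ (8436 to 10710) and held 128 to 517 of GUCY1B1, against 43.2 to 690 in the other 13. CNGA3 held 1.16 to 19.8 in them, at or under 3 reads in MCD replicate 4 and FFGRD replicate 3, so its r rests in part on values near the floor. NPR3 had r = 0.24 (rho = 0.23) and NPR1 r = −0.26 (rho = −0.18), with adjusted permutation p-values of 0.438 for both r. For GUCY1A1, PRKG1 and PDE5A r was 0.25, −0.02 and −0.41, and rho was 0.42, −0.04 and −0.39 (adjusted permutation p from 0.228 to 0.944 for r). The labels name no batch within which these relations could be recomputed.

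The genes most like NPR3 over the 32 libraries, among 10619 named genes tested, were ZBTB16 (Pearson's r = 0.95 of log2 values), FKBP5 (0.94), CPM (0.93), ARMC12 (0.93) and CFAP100 (0.93). ZBTB16, a zinc finger transcription factor, had at most 8.19 normalized reads in preadipocytes and 157 to 2420 in adipocytes. FKBP5, a co-chaperone of steroid receptors, had 101 to 906 and 4118 to 31700. Those most like CNGA3 were EPB41L3 (0.95), DEF6 (0.94), LTBP3 (0.93), TCN2 (0.93) and JPH2 (0.93). EPB41L3, a membrane skeleton protein, had 238 to 1078 normalized reads in preadipocytes and 3.48 to 84.8 in adipocytes. These genes share the difference between the stages with the gene they resemble, and NPR3 and CNGA3 had r = −0.90 with each other. Both were chosen by their change between the stages, so nothing further is read from this r or from the ranks.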

How the data were processed

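The deposited table holds 1 signal value per transcript and library, in normalized reads. To make it the authors dropped sequences of mean Phred score under 34, ran Salmon against Oar_rambouillet_v1.0 (Ensembl annotation) and normalized with DESeq2 size factors, and FastQC 0.11.9 is named in the submitters' processing notes. The authors' group means, fold changes and p-values in the table were not used. The 8 genes and the lists of pathway and marker genes were chosen with earlier results of these data known, and the pathway genes named are those that passed the test over all groups, with others as examples of those that did not.

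Transcript values were summed per gene. Genes with at least 10 in at least 4 libraries of a fit were tested with limma 3.58.1 (R 4.3.3, empirical Bayes trend) on log2(value + 1), so fold changes of low genes are understated. A gene was called at a Benjamini-Hochberg adjusted p below 0.05, over all genes of the fit, and a fold change above 1.5. Single transcripts were a second family. Correlations used 100000 permutations (SciPy 1.17.1, two-sided). Libraries standing apart are those of the smaller branch at the highest division of an average linkage tree (1 minus Pearson's r). On simulated data 59% of genes changed by a log2 of 2 were recovered in MC and 94% over all groups. Only genes of higher mean were changed there, and the noise was independent between libraries. These shares therefore do not cover low genes or libraries that share a slope.

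Same-numbered libraries of the stages were checked for pairing by the correlation of their deviations from the group means, which was 0.162 to 0.615 in MC, 0.303 to 0.508 in FC, 0.393 to 0.671 in MFGR and −0.398 to 0.565 in FFGR. The numbers were taken to pair the stages in the first 3. The main fits do not use this pairing. It enters only as the replicate block, which in the fits over all 32 libraries pairs FFGR too. No sequences were printed, and 1 gene of the pathway list is not reported here and is left out of its counts.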

Additional observations from a re-analysis of the deposited data

Results flagged for a closer look

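Among the 64 groups of 4 libraries (8 genes, 8 groups), 5 held a library far from the other 3 on the log2 scale by Dixon's test, which flags about 1 group in 20 by chance. These were NPR1 in FC replicate 1 with 70.3 normalized reads, NPR2 in FC replicate 2 with 111.9, NPR3 in MC replicate 4 with 1.44, GUCY1A1 in FCD replicate 1 with 1.51 and PRKG1 in FC replicate 2 with 51.0. FC replicate 2 is among the 7 libraries that stand apart.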

How the results depend on the processing

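The alternatives were a pseudocount of 0.1, quantile normalization, genes above 0 in 4 libraries, 20 per M in 3 libraries (which GUCY1A1 did not pass over all groups), all 8 groups in a single fit, the replicate block, the span slope as a covariate, library weights, the transcript with the highest mean and leaving out each library. Leaving out the 7 libraries, and removing the span slope from both measures of a correlation, were chosen after seeing the data. NPR3 and CNGA3 kept their direction, and NPR1 its call over all groups, under all of them. Of the 6 genes, the number called in MC was 1 or 2 over the fits without 1 library, and over all groups 1 or 2. In FC it rose from 0 to 1 with library weights (NPR1). In MFGR it became 1 with the replicate block (NPR1), the span slope (PDE5A) or library weights (GUCY1A1), and in FFGR 3 with library weights (NPR1, NPR2, PDE5A). The shares of all genes called in these alternative fits are not given here, so nothing particular to the genes is read from such counts. The replicate block changed no other call of the 8 genes. Over all groups GUCY1B1 lost its call with library weights (0.63), without the 7 libraries (0.70) and for its main transcript (1.00), and GUCY1A1 gained one with library weights (−2.22) and without the 7 libraries (−2.08). The sign of NPR2 turned with quantile normalization (−0.03), without the 7 libraries (−0.083) and for its main transcript (−0.09). Without 1 library NPR2 ran from −0.087 to 0.131 and PRKG1 from −0.25 to 0.083. In the correlation with ADIPOQ, PRKG1 turned positive with quantile normalization (0.05), the span slope removed (0.60) and without the libraries that stand apart (0.30), and ran from −0.16 to 0.14 without 1 library. Without the 2 farthest libraries r was −0.092 for NPR3, −0.63 for NPR2, 0.75 for GUCY1B1 and −0.63 for CNGA3, and without 1 library it ran from −0.61 to −0.43, 0.50 to 0.78 and −0.65 to −0.46 for the last 3. The cause of these shifts was not tested. By growth restriction, sex and response, 0 of the genes were called in 264 of 264 fits under alternatives. Values under about 3 reads, as for NPR3 in preadipocytes and GUCY1A1, limit the fold changes.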
